A study of Mus musculus with 2 samples.

Results

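The 9 genes described here encode ligands that tumour and myeloid cells present to T and NK cells: *Cd274* (PD-L1), *Pdcd1lg2* (PD-L2), *Cd80*, *Cd86*, *Cd276* (B7-H3), *Lgals9* (galectin-9), *Pvr* (CD155), *Nectin2* (CD112) and *Vsir* (VISTA). They were chosen by symbol among the 33696 genes of the count matrices, and all 9 were found. The cells came from subcutaneous tumours of CT26, a mouse colon carcinoma cell line, grown in male BALB/c mice of 6 to 8 weeks. In the UT group the tumours were left untreated. The BUP group received BUP-Gel, a hydrogel loaded with bupivacaine, a local anaesthetic that blocks sodium channels, at 40 mg/kg. Each group was 1 library (10x Genomics 5' v2) made from the pooled tumours of 3 mice, so values between the libraries have no replicate check, no test was made, and every interval given covers counting error only. The UT library carries no empty gel, so effects of gel and drug cannot be told apart, and all tumours come from 1 cell line. Below, a pair of values gives UT first and BUP second. Live CD45+ and CD45- cells were sorted and mixed at a fixed ratio before loading (given as 4 to 1 in the labels and as 3 to 1 in the methods), so shares of cell types reflect the sort and the mix.

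T cells need a second signal beside antigen, and these ligands set it. CD80 and CD86 on antigen-presenting cells bind CD28, which activates T cells, and CTLA-4, which restrains them, while PD-L1 and PD-L2 bind the inhibitory receptor PD-1. CD155 and CD112 on tumour and myeloid cells bind the activating receptor CD226 and the inhibitory receptor TIGIT, galectin-9 can bind TIM-3 (*Havcr2*), VISTA is an inhibitory B7-like protein of myeloid and T cells, and B7-H3 is a B7-like protein found on many tumour and stromal cells. PD-L1 is induced by interferon-gamma, and antibodies that block it or PD-1 are used to treat cancer.

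*Cd274* and *Pdcd1lg2* lie side by side on chromosome 19 in the same orientation, with 22823 bases between them, and the sequence before each start is shown because these neighbours differed in where and how strongly they were detected. The windows are the 250 bases before the annotated gene starts in GRCm39, plus strand, at chr19:29344279-29344528 for *Cd274* and chr19:29388069-29388318 for *Pdcd1lg2*. Capitals mark the only matches in these windows to 3 motifs searched on both strands: the interferon-stimulated response element core (GAAA, any 2 bases, GAAA), the GAS motif TTCNNNGAA and the kappaB consensus.
Cd274: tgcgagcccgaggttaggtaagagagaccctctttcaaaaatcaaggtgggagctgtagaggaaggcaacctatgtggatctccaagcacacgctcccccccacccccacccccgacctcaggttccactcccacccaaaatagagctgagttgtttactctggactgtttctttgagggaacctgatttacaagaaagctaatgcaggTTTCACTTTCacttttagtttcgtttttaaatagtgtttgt
Pdcd1lg2: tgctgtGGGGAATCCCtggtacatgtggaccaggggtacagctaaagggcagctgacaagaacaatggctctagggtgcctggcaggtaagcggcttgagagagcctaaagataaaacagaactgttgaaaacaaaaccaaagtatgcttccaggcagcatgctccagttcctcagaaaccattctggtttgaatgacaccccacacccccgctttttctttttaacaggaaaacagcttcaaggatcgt
The *Cd274* window held the response element core, on the other strand, 41 to 32 bases before the start, and the *Pdcd1lg2* window held a kappaB match 244 to 235 bases before the start. Among 21757 windows of protein-coding genes, 3.44% held the response element core, 7.82% the GAS motif and 3.93% the kappaB consensus. No other window of the 9 genes matched any of the 3 motifs. A match is a description of letters and no site was tested.

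The UT library held 7556 barcodes and 83228442 UMIs (unique molecular identifiers, each counting an RNA molecule once whatever its length), and the BUP library 7221 barcodes and 89918925 UMIs. After filtering, 7163 and 6776 cells remained, with a median of 8430 and 10420 UMIs. The libraries shared 76 barcodes, 68 of them among the kept cells, and 13 of these fell in the same class in both. Clusters were named from marker genes and called, for example, tumour-like where the markers fitted. Tumour-like cells (1125 UT, 2430 BUP) had UMIs of 11 of 12 tumour markers, and macrophage-like, dendritic-like and neutrophil-like cells of 9 of 12 each. The markers were summed at 972 and 753 CPM (UMIs of a gene per 1000000 UMIs summed over a group of cells), against 26.7 and 16.2 CPM in macrophage-like cells. *Ogn*, *Aspn*, *Krt20*, *Esm1* and *Nppb* on this list are also leading genes of tumour-like clusters, so the list is no independent check of the name. Tumour-like cells also carried fibroblast genes at 742 and 789 CPM, but Y-linked genes of the male hosts were at 5.53 and 4.92 CPM in them, against 123 CPM in the fibroblast-like cluster. Macrophage-like cells numbered 2790 and 1412, dendritic-like cells 176 and 175, and neutrophil-like cells 623 and 427, the last with a median of only 1887 and 2129 UMIs. One of the 4 macrophage-like clusters was led by interferon response genes (5 of its 10 leading genes) and had no macrophage marker among its 10 leading genes, and its values are given apart for *Cd274*, *Cd80*, *Cd86* and *Lgals9*.

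Most of the 9 genes differed little between the libraries within a cell class. A gene was counted as higher or lower where its CPM differed by at least 1.5-fold and at least 50 UMIs were seen over both libraries in the class. In macrophage-like cells *Cd80* alone was higher (1 of 9 members) and none lower, beside 3.29% of 12170 genes higher and 5.74% lower. *Pdcd1lg2* alone was lower in tumour-like cells (1 of 9) and in dendritic-like cells (1 of 8, *Cd276* having too few UMIs), and no member was higher in either class. The background was 2.72% higher and 5.29% lower among 13362 genes in tumour-like cells, and 2.36% higher and 8.97% lower among 7890 genes in dendritic-like cells. None of the 6 members with enough UMIs passed in neutrophil-like cells, where 2.26% of 3978 genes were higher and 14.7% lower. A single member in a class is too few to read against these shares. The median log2 ratio (BUP over UT) over the members was -0.31 in tumour-like, 0.12 in macrophage-like, -0.16 in dendritic-like and -0.00 in neutrophil-like cells, against -0.04, -0.09, -0.10 and -0.10 over all genes counted.

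**Figure D1:**
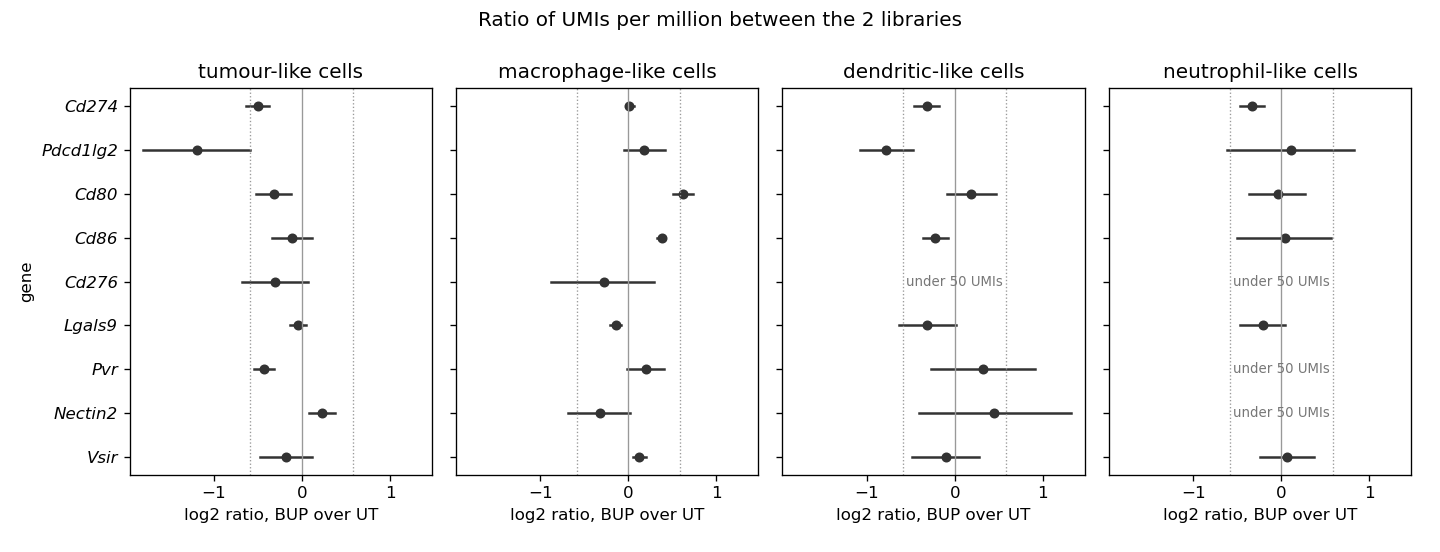
Log2 ratio of the CPM in the BUP library over that in the UT library (x axis) for each of the 9 genes (y axis) in 4 cell classes, with 95% counting intervals as bars and dotted lines at 1.5-fold. *Cd80* lies beyond the upper line in macrophage-like cells at 0.62, and *Pdcd1lg2* beyond the lower line in tumour-like cells at -1.19 and in dendritic-like cells at -0.78.

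*Cd274* (ENSMUSG00000016496; chromosome 19, 29344529 to 29365495, plus strand), the gene of PD-L1, was far higher in the 3 myeloid classes than in tumour-like cells. Outside the 4 classes, regulatory and gamma-delta T-like cells had 332 and 214 CPM, above *C1q* macrophage-like cells (251 CPM) in UT and below them (277 CPM) in BUP. Neutrophil-like cells held 865 CPM in UT and 687 CPM in BUP. Dendritic-like cells had 449 and 360 CPM, and macrophage-like cells 347 and 351 CPM. Tumour-like cells were far below all of them, at 30.7 CPM (95% interval 28.7 to 32.8) and 21.7 CPM (20.5 to 23.1). The order of the classes was the same in both libraries, although in BUP the interval of dendritic-like cells (336 to 386 CPM) overlapped that of macrophage-like cells (341 to 360 CPM). After each cell was thinned to 2000 UMIs to remove differences in depth, a *Cd274* UMI was seen in 54.3% and 51.5% of neutrophil-like cells, 43.5% and 41.7% of macrophage-like cells, and 5.55% and 3.49% of tumour-like cells. Without thinning the shares were 44.8% and 48.7%, 76.9% and 76.8%, and 29.7% and 22.1%. Thinning left out 341 and 198 neutrophil-like cells, so their share describes the deeper ones. Fibroblast-like cells, with a median of 17722 and 21164 UMIs, gave a background of 0% of 15 and 1.56% of 64 thinned cells.

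Between the libraries, *Cd274* was lower in BUP in 3 of the 4 classes. In tumour-like cells the log2 ratio was -0.50 (95% interval -0.63 to -0.37), and it was -0.71 after thinning. In dendritic-like and neutrophil-like cells it was -0.32 (-0.46 to -0.18) and -0.33 (-0.47 to -0.20). In neutrophil-like cells the marker sums also differed, with interferon response genes (6 of 6 detected) at 3950 and 2138 CPM, monocyte markers (9 of 9) at 822 and 526 CPM and neutrophil markers (8 of 8) at 77368 and 112465 CPM. Migratory dendritic markers (7 of 7) in dendritic-like cells were at 3165 and 2333 CPM and macrophage markers (14 of 14) at 3888 and 2441 CPM, and the part of these lists in the ratios was not tested. In macrophage-like cells the *Cd274* ratio was 0.01 (-0.03 to 0.06), and -0.14 (-0.25 to -0.03) after thinning, with the sign of the other classes. The first value pooled clusters with opposite signs. In the macrophage-like cluster led by *Cxcl3* and *Thbs1* the level was 491 CPM in UT and 407 CPM in BUP (-0.27, interval -0.34 to -0.20). In the cluster led by complement *C1q* genes it was 251 and 277 CPM (0.14, interval 0.05 to 0.22), and in cycling *C1q* cells 204 and 138 CPM (-0.57, interval -0.85 to -0.30). The interferon-led cluster, the highest among macrophage-like clusters, had 635 and 609 CPM (-0.06, interval -0.21 to 0.09). With the shares of the 4 clusters held at those of UT, the ratio of the class was -0.12. Before thinning none of the class ratios reached 1.5-fold, and after it the tumour-like ratio did.

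The highest *Cd274* level of any cluster was in migratory dendritic-like cells (74 and 67 cells), which carry *Ccr7*, *Ccl22* and *Fscn1*, markers of mature dendritic cells on their way to lymph nodes. They held 1159 CPM (1071 to 1251) in UT and 858 CPM (784 to 937) in BUP, and a UMI in 87.1% and 72.1% of thinned cells. The cDC1-like cluster, cross-presenting dendritic cells marked by *Xcr1* and *Clec9a*, had 219 and 182 CPM, so that dendritic-like clusters differed more from each other than the libraries did. Plasmacytoid dendritic-like cells went the other way, with 108 and 231 CPM, but on only 39 and 54 UMIs. Their *C1q* genes differed too, at 83.2% of the macrophage level in UT and 33.0% in BUP, and the part of this in the result was not tested. Without that cluster the dendritic ratio was -0.47. In all kept cells together *Cd274* was at 223 and 132 CPM, with a log2 ratio of -0.76. Macrophage-like cells held 58.7% of all *Cd274* UMIs in UT and 44.5% in BUP, while their share of all UMIs was 37.7% and 16.7%.

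**Figure D2:**
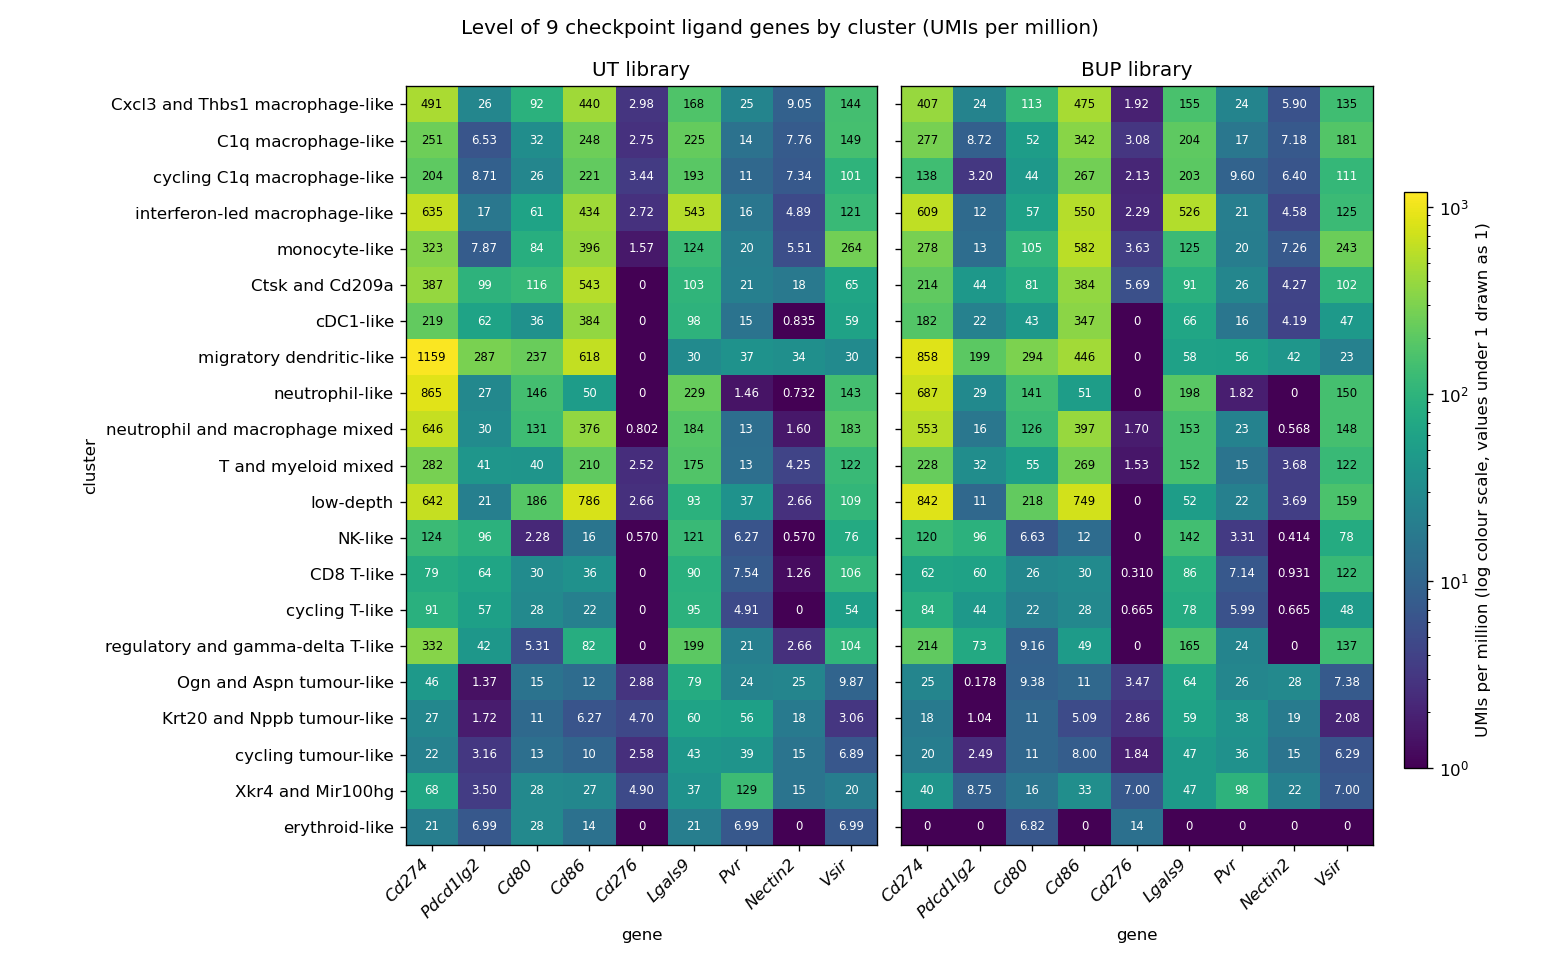
Levels of the 9 genes (x axis) in each cluster of at least 50 cells in both libraries (y axis), for the UT (left) and BUP (right) library, as CPM printed in each cell and on a log colour scale. *Cd274* peaks in migratory dendritic-like cells at 1159 and 858 CPM, *Lgals9* in interferon-led macrophage-like cells at 543 and 526 CPM, and *Pvr* in the *Xkr4* and *Mir100hg* cluster at 129 and 98.0 CPM.

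*Pdcd1lg2* (ENSMUSG00000016498; chromosome 19, 29388319 to 29448882, plus strand), the gene of PD-L2, was scarcer and had another distribution than its neighbour. Dendritic-like cells had 112 CPM (98.7 to 128) in UT and 65.7 CPM (55.5 to 77.2) in BUP, with a log2 ratio of -0.78 (-1.08 to -0.47). After thinning the ratio was -0.61, with an interval that held 0 (-1.28 to 0.04). In this class migratory dendritic and macrophage markers were lower in BUP, as given for *Cd274*, and neutrophil markers (8 of 8) were at 1143 and 2166 CPM. Their part in the ratio was not tested. Neutrophil-like cells had 27.1 and 29.2 CPM of *Pdcd1lg2*, macrophage-like cells 13.9 and 15.8 CPM, and tumour-like cells 1.99 and 0.871 CPM. In both libraries the intervals of these 4 classes did not overlap. In tumour-like cells the ratio of -1.19 (-1.80 to -0.59) rested on 55 and 43 UMIs, most of them in the few cells with high doublet scores described below, and thinned shares of 0.273% and 0.124% were near the 0% found in fibroblast-like cells. Among dendritic-like clusters the migratory cells held 287 and 199 CPM (-0.53, interval -0.89 to -0.17), and the cDC1-like cells 61.8 and 22.4 CPM (-1.47, interval -2.11 to -0.85) on 74 and 32 UMIs. Thinned, these ratios were -0.24 (-0.99 to 0.50) and -1.95 (-3.76 to -0.41). Over both libraries together the second highest cluster was not myeloid. NK-like cells held 96.1 and 96.5 CPM and CD8 T-like cells 64.1 and 59.6 CPM. After thinning the ratio was -0.07 (-0.57 to 0.43) in NK-like cells, but -0.66 (-1.30 to -0.03) in CD8 T-like cells, 12.5% and 8.51% of which had a UMI.

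*Pdcd1lg2* made up a different part of the PD-1 ligand UMIs in each cell type. It was 3.85% and 4.31% of *Pdcd1lg2* and *Cd274* UMIs in macrophage-like cells and 3.04% and 4.08% in neutrophil-like cells. In migratory dendritic-like cells it was 19.9% (17.2 to 22.8) and 18.8% (15.8 to 22.2), where the libraries overlapped. In cDC1-like cells it was 22.0% (17.7 to 26.8) in UT and 10.9% (7.59 to 15.1) in BUP, where the intervals did not overlap. It was largest in NK-like cells, at 43.7% and 44.6%, and CD8 T-like cells, at 44.7% and 48.9%. Not all lymphoid cells were that high, since regulatory and gamma-delta T-like cells had 11.3% (6.63 to 17.8) and 25.5% (17.1 to 35.6). Of thinned migratory dendritic-like cells, 45.2% of 62 cells in UT and 32.8% of 61 in BUP had UMIs of both genes.

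*Cd80* (ENSMUSG00000075122; chromosome 16, 38275923 to 38316697, plus strand) encodes the CD28 and CTLA-4 ligand that also binds PD-L1 on the same cell. In macrophage-like cells it was at 53.0 CPM (50.5 to 55.6) in UT and 81.5 CPM (77.0 to 86.2) in BUP, with a log2 ratio of 0.62 (0.51 to 0.73). A UMI was seen in 36.0% and 46.2% of these cells, and in 11.5% and 14.8% after thinning, when the ratio was 0.41. NK-like cells, which should lack the gene, had a UMI in 0.505% and 1.06% of thinned cells, their median depth being 5256 and 5620 UMIs. The *Cxcl3* and *Thbs1* cluster had 92.1 and 113 CPM (0.30, interval 0.16 to 0.44). In the *C1q* cluster the level was 32.2 and 51.5 CPM (0.68, interval 0.46 to 0.89), and in cycling *C1q* cells 25.7 and 43.7 CPM (0.77, interval 0.21 to 1.30). The interferon-led cluster, at 61.4 and 57.3 CPM, had a ratio of -0.10 (-0.61 to 0.39), so before thinning 3 of the 4 clusters were higher in BUP beyond counting error. In 1 of these, the cycling *C1q* cells, the direction turned after thinning (-0.71, interval -3.90 to 1.43), with a UMI in 5.13% and 3.39% of cells. Thinned ratios stayed positive in the *Cxcl3* and *Thbs1* cluster (0.25, interval -0.03 to 0.54) and the *C1q* cluster (0.53, interval -0.07 to 1.11), but both intervals held 0. The *Cxcl3* and *Thbs1* cluster, with the highest *Cd80* level of the 4, was 1258 of 2790 macrophage-like cells in UT and 806 of 1412 in BUP, and with the shares held fixed the class ratio was 0.43, under 1.5-fold. Neutrophil markers, all 8 of them detected, were summed at 1375 and 2865 CPM in the same class, and neutrophil-like cells themselves held *Cd80* at 146 and 141 CPM. The neutrophil genes *S100a8* and *S100a9* together were at 0.655% and 0.916% of the level of neutrophil-like cells in the *Cxcl3* and *Thbs1* cluster and at 2.13% and 4.39% in the *C1q* cluster. Erythroid markers, 5 of 5 detected, were at 83.3 and 350 CPM, and the part of both lists in the result was not tested.

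Neutrophil-like cells had the highest *Cd80* level of the 4 classes, at 146 CPM (126 to 167) and 141 CPM (120 to 165). Dendritic-like cells followed at 92.3 CPM (79.8 to 106) and 105 CPM (92.5 to 120), where the BUP intervals of both classes met. Tumour-like cells had 12.7 and 10.1 CPM, with a log2 ratio of -0.32 (-0.52 to -0.12). Migratory dendritic-like cells were again the highest cluster, with 237 and 294 CPM (0.31, interval -0.03 to 0.64), a difference within counting error.

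*Cd86* (ENSMUSG00000022901; chromosome 16, 36424044 to 36486443, minus strand), the other CD28 and CTLA-4 ligand, was more abundant than *Cd80* in macrophage-like and dendritic-like cells. Macrophage-like cells had 319 CPM (313 to 326) in UT and 414 CPM (404 to 425) in BUP, with a log2 ratio of 0.38 (0.33 to 0.42). Dendritic-like cells had 413 CPM (386 to 442) and 354 CPM (330 to 380), a ratio of -0.22 (-0.36 to -0.08). The order of these classes was thus reversed between the libraries, in a dendritic-like class whose marker sums of other cells differed as given for *Cd274* and *Pdcd1lg2*. Within dendritic-like cells the migratory cluster was at 618 and 446 CPM (-0.47, interval -0.71 to -0.24) and the cDC1-like cluster at 384 and 347 CPM (-0.15, interval -0.33 to 0.04). The sign in macrophage-like cells was positive in all 4 clusters, from 0.11 (0.05 to 0.18) in the *Cxcl3* and *Thbs1* cluster to 0.46 (0.38 to 0.54) in the *C1q* cluster. The interferon-led cluster had 434 and 550 CPM (0.34, interval 0.17 to 0.51). Neutrophil-like cells had 49.8 and 51.1 CPM, and a UMI in 6.74% and 7.86% of thinned cells against 1.77% and 1.41% of NK-like cells. Macrophage *C1q* genes in these neutrophil-like cells were at 6.53% and 4.30% of the macrophage level.

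**Figure D3:**
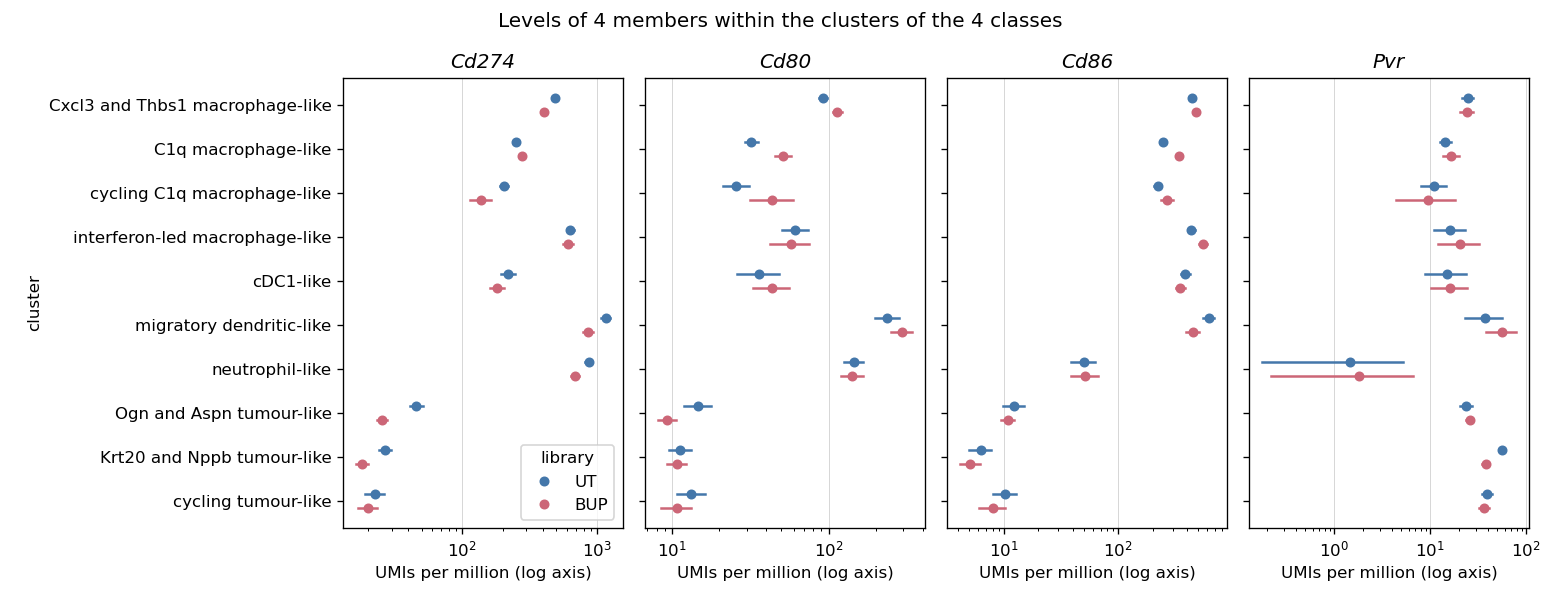
CPM on a log axis (x axis) of *Cd274*, *Cd80*, *Cd86* and *Pvr* in the 10 clusters of the 4 classes with at least 50 cells in each library (y axis), with 95% counting intervals as bars, UT in blue and BUP in red. *Cd80* is higher in BUP in the *C1q* cluster (32.2 and 51.5 CPM), while *Cd274* is lower in the *Ogn* and *Aspn* tumour-like cluster (45.8 and 25.4 CPM).

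The balance of these B7 ligands set neutrophil-like cells apart from the other myeloid cells. *Cd80* made up 74.5% (68.9 to 79.6) of *Cd80* and *Cd86* UMIs in neutrophil-like cells in UT and 73.5% (67.0 to 79.3) in BUP. In macrophage-like cells it was 14.2% (13.6 to 14.9) and 16.4% (15.6 to 17.3). Migratory dendritic-like cells had 27.7% (23.8 to 32.0) in UT and 39.7% (35.0 to 44.6) in BUP, the widest shift between the libraries among the myeloid clusters drawn. *Cd80* and *Cd86* are on the same chromosome, 1789479 bases apart, and their levels over 42 points, each 1 of 21 clusters in 1 library, had a Pearson r of 0.78 (log2 scale, points sharing library and depth).

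**Figure D4:**
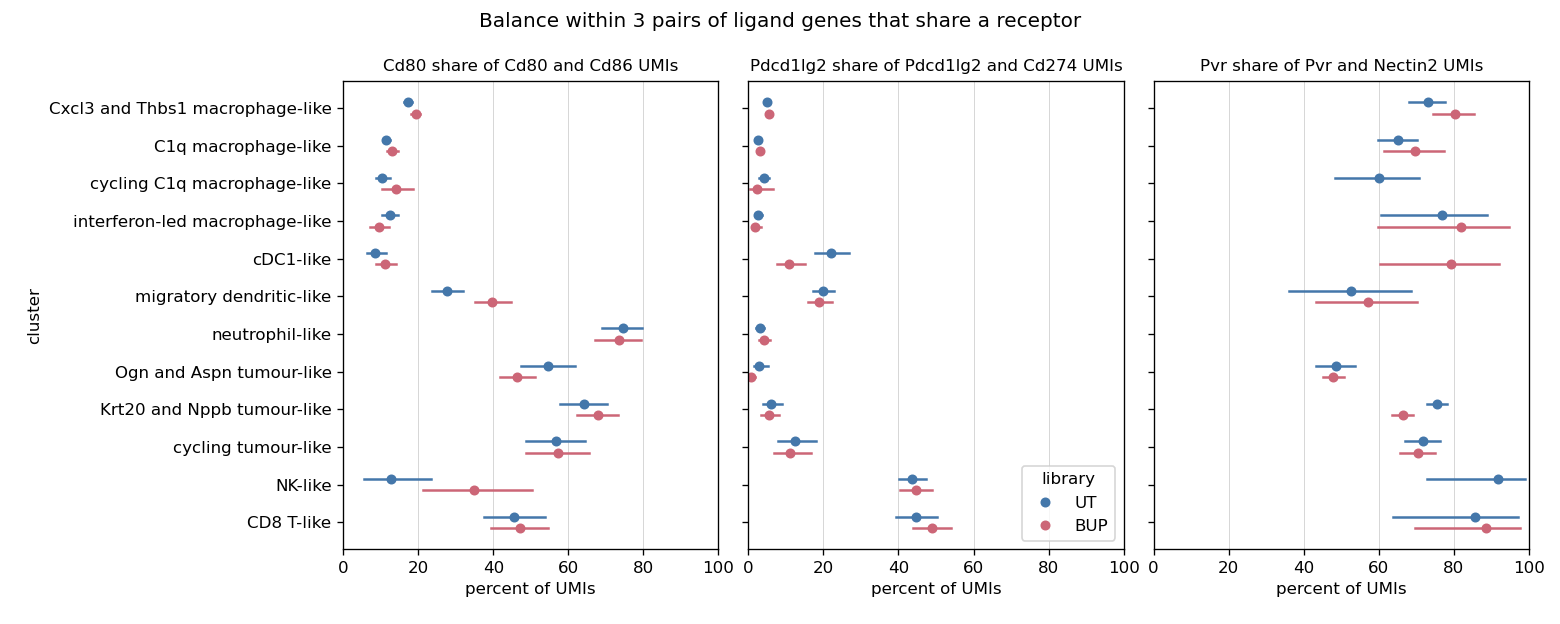
Share of UMIs (x axis, percent) that belong to the first gene of 3 pairs sharing a receptor, by cluster (y axis) and library (UT blue, BUP red), with exact 95% binomial intervals as bars and no point where a pair had under 20 UMIs. *Cd80* dominates its pair in neutrophil-like cells at 74.5% and 73.5%, and *Pdcd1lg2* is largest in NK-like and CD8 T-like cells at 43.7% to 48.9%.

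*Pvr* (ENSMUSG00000040511; chromosome 7, 19637503 to 19655085, minus strand) and *Nectin2* (ENSMUSG00000062300; chromosome 7, 19450569 to 19484408, minus strand), which encode the CD226 and TIGIT ligands CD155 and CD112, were the members with the highest level in tumour-like cells relative to macrophage-like cells. *Pvr* was at 43.3 CPM (40.9 to 45.8) in tumour-like cells in UT and 32.2 CPM (30.6 to 33.8) in BUP, with a log2 ratio of -0.43 (-0.54 to -0.32). Macrophage-like cells had 17.5 and 20.1 CPM and dendritic-like cells 21.2 and 26.4 CPM. Those 2 classes overlapped in both libraries, and in BUP the interval of dendritic-like cells (20.1 to 34.0 CPM) also reached that of tumour-like cells. Neutrophil-like cells had 2 UMIs in each library, in 0% and 0.437% of thinned cells, against 8.10% and 5.98% of tumour-like cells. Tumour-like cells held 54.6% and 68.1% of all *Pvr* UMIs, beside 33.5% and 55.3% of all UMIs.

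The lower *Pvr* in BUP was found in 1 of the 3 tumour-like clusters. In the cluster led by *Krt20* and *Nppb* the level was 55.9 CPM (52.0 to 60.1) and 37.9 CPM (35.2 to 40.8), with a log2 ratio of -0.56 (-0.71 to -0.41). In the *Ogn* and *Aspn* cluster it was 23.9 and 25.8 CPM (0.11, interval -0.13 to 0.37), and in cycling cells 39.3 and 36.3 CPM (-0.11, interval -0.36 to 0.13). The highest level was in an unnamed CD45-negative cluster led by *Xkr4* and *Mir100hg* (93 and 120 cells), with 129 and 98.0 CPM (-0.39, interval -0.75 to -0.05), which was kept out of the tumour-like class.

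*Nectin2* went the other way from *Pvr* in tumour-like cells, at 19.3 CPM (17.7 to 21.0) and 22.6 CPM (21.3 to 24.0), with a log2 ratio of 0.23 (0.08 to 0.38). None of the 3 clusters had an interval that left out 0: the ratios were 0.15, 0.09 and -0.01 in the *Ogn*, *Krt20* and cycling clusters. The *Ogn* and *Aspn* cluster, with the highest level of the 3 (25.4 and 28.1 CPM), was 506 of 1125 tumour-like cells in UT and 1506 of 2430 in BUP. *Pvr* made up 69.2% (66.9 to 71.3) of the *Pvr* and *Nectin2* UMIs of tumour-like cells in UT and 58.7% (56.8 to 60.5) in BUP. By cluster this share was 75.6% and 66.4% in the *Krt20* and *Nppb* cluster. It was nearly the same in both libraries in the *Ogn* and *Aspn* cluster (48.5% and 47.9%) and in cycling cells (71.9% and 70.5%). Fibroblast-like cells had the highest *Nectin2* level, 85.8 and 99.5 CPM on 25 and 142 UMIs. Macrophage-like cells had 7.96 and 6.36 CPM, and neutrophil-like cells 1 and 0 UMIs, which is at or under the floor of 3 counts. The levels of *Pvr* and *Nectin2* over the 42 cluster points had a Pearson r of 0.75.

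*Lgals9* (ENSMUSG00000001123; chromosome 11, 78853800 to 78875798, minus strand), the gene of the sugar-binding protein galectin-9, was the member with the highest level in tumour-like cells. They had 60.9 CPM (58.0 to 63.9) in UT and 59.3 CPM (57.2 to 61.5) in BUP, with a log2 ratio of -0.04 (-0.13 to 0.05). Neutrophil-like cells had 229 and 198 CPM and macrophage-like cells 220 and 199 CPM, with overlapping intervals in both libraries. Dendritic-like cells had 84.3 and 67.9 CPM, which in BUP overlapped tumour-like cells. The interferon-led macrophage-like cluster stood above every other cluster, at 543 CPM (510 to 578) and 526 CPM (479 to 576), with a UMI in 66.2% and 62.3% of thinned cells. Migratory dendritic-like cells, the highest for PD-L1, were among the lowest here, with 30.1 and 57.7 CPM (0.94, interval 0.05 to 1.87) on 17 and 33 UMIs. The cDC1-like cluster had the opposite sign, with 97.7 and 65.7 CPM (-0.57, interval -0.98 to -0.17), so the dendritic-like value pools both. In macrophage-like cells the ratio was -0.14 (-0.21 to -0.08), and thinned shares were 34.4% and 28.8%.

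*Vsir* (ENSMUSG00000020101; chromosome 10, 60182630 to 60208463, plus strand), the gene of VISTA, was spread over myeloid and T cells and differed by less than 1.5-fold between the libraries in macrophage-like, dendritic-like and neutrophil-like cells. In tumour-like cells it was at 5.82 and 5.14 CPM (-0.18, interval -0.47 to 0.12), with a ratio of -0.64 (-1.59 to 0.35) after thinning. In all kept cells together it was at 84.0 and 54.8 CPM (-0.62, interval -0.67 to -0.56), where the mix of cell types differs too. Plasmacytoid dendritic-like cells had 88.3 and 162 CPM (0.88, interval 0.16 to 1.60) on 32 and 38 UMIs, and 0.06 after thinning. Neutrophil-like cells had 143 and 150 CPM, macrophage-like cells 139 and 151 CPM, and dendritic-like cells 56.5 and 52.7 CPM. The intervals of the first 2 classes overlapped in both libraries. Monocyte-like cells, a cluster led by *Adgre4*, *Chil3* and *Ace*, had the highest level, 264 CPM (236 to 293) and 243 CPM (204 to 288). CD8 T-like cells had 106 and 122 CPM and NK-like cells 76.4 and 77.9 CPM. Migratory dendritic-like cells, with 30.1 and 22.7 CPM, were the lowest of the myeloid clusters. The log2 ratio was 0.12 (0.05 to 0.20) in macrophage-like cells and 0.28 (0.17 to 0.39) in the *C1q* cluster, from 149 to 181 CPM, and -0.09 (-0.21 to 0.03) in the *Cxcl3* and *Thbs1* cluster.

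*Cd276* (ENSMUSG00000035914; chromosome 9, 58431412 to 58463665, minus strand), the gene of B7-H3, was near the detection limit. Tumour-like cells had 3.69 CPM (3.01 to 4.48) and 2.98 CPM (2.52 to 3.50), and macrophage-like cells 2.92 CPM (2.35 to 3.59) and 2.41 CPM (1.69 to 3.33), with overlapping intervals. No UMI was found in dendritic-like or neutrophil-like cells. At this depth that allows a share of cells with a UMI of up to 2.07% and 2.09% of dendritic-like and 0.590% and 0.860% of neutrophil-like cells (exact binomial). Fibroblast-like cells were above these, with 51.5 and 32.9 CPM on 15 and 47 UMIs, and a difference between the libraries was not detectable at this depth in any of the 4 classes. Among tumour-like clusters only the *Krt20* and *Nppb* cluster had an interval below 0, with 4.70 and 2.86 CPM (-0.72, interval -1.27 to -0.17) on 63 and 55 UMIs.

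In tumour-like cells the members fell into those spread over the cells and those held by a few cells with high doublet scores (a Scrublet score that rises where a barcode looks like a mix of 2 cells). The 6% of cells of each library with the highest scores included 112 tumour-like cells in UT (9.96%) and 170 in BUP (7.0%). These held 78.3% and 90.8% of *Cd86* UMIs, 64.6% and 79.1% of *Vsir* UMIs and 58.2% and 88.4% of *Pdcd1lg2* UMIs. The same cells held 87.0% and 88.4% of the UMIs of the macrophage genes *C1qa*, *C1qb* and *C1qc*, and 73.6% and 90.6% of those of the immune gene *Ptprc*. By contrast they held 9.60% and 8.63% of *Pvr*, 8.80% and 7.69% of *Nectin2*, and 10.8% and 8.16% of *Cd276* UMIs, close to their share of cells. For *Lgals9* they held 13.5% and 12%, above that share. *Cd274* lay between, with 34.9% and 31.8%, and so did *Cd80*, with 24.2% and 24.0%. In the remaining tumour-like cells *Cd274* was at 22.2 and 16.3 CPM (log2 ratio -0.44), *Pvr* at 43.5 and 32.4 CPM (-0.43) and *Cd80* at 10.7 and 8.51 CPM (-0.33). In all tumour-like cells these ratios were -0.50, -0.43 and -0.32. *Cd86*, at 2.13 and 0.826 CPM in the remaining cells on 53 and 37 UMIs, had a ratio of -1.37 in place of -0.11. *Vsir*, at 2.29 and 1.18 CPM on 57 and 53 UMIs, had one of -0.95 in place of -0.18. In the same cells the *C1q* genes were at 31.5 and 13.8 CPM and *Ptprc* at 7.31 and 1.94 CPM. Their part in the ratios of *Cd274*, *Pvr*, *Cd80*, *Cd86* and *Vsir* was not tested. *Pdcd1lg2* rested on 23 and 5 UMIs.

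Macrophage markers, 14 of 14 detected, were summed at 656 and 444 CPM in tumour-like cells. As a share of the macrophage level, tumour-like cells had *C1q* genes at 3.09% and 2.10%, *Cd86* at 2.76% and 1.97%, *Vsir* at 4.19% and 3.41% and *Ptprc* at 5.52% and 4.05%. *Cd274* was above these, at 8.84% and 6.19%, as was *Cd80*, at 23.9% and 12.5%. The part of macrophage RNA in the *Cd274* difference of tumour-like cells was not tested. Among tumour-like clusters the *Cd274* ratio was -0.85 (-1.05 to -0.65) in the *Ogn* and *Aspn* cluster, from 45.8 to 25.4 CPM, and -0.56 (-0.78 to -0.34) in the *Krt20* and *Nppb* cluster, from 26.7 to 18.1 CPM. Their *C1q* genes were lower in BUP too, at 266 and 138 CPM in the first and 99.4 and 34.1 CPM in the second. Cycling tumour-like cells, of which 22.4% had the highest doublet scores, had a ratio of -0.17 (-0.50 to 0.16), with *C1q* genes at 395 and 206 CPM.

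UMIs of more than 1 of the 9 genes were often seen under the same barcode. Doublets were kept and no background share was taken off, so these shares describe detection. After thinning, 2 or more members were seen in 79.0% and 73.8% of migratory dendritic-like cells, 53.1% and 55.5% of macrophage-like cells and 42.9% and 47.2% of neutrophil-like cells. In dendritic-like cells as a whole the share was 49.7% and 39.6%, and in tumour-like cells 4.91% and 3.86%. No member was seen in 69.4% and 74.8% of tumour-like cells, against 15% and 12% of macrophage-like cells.

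The receptors listed for these ligands, other than *Btla* and *Rgmb*, were at their highest in T-like or NK-like clusters. *Pdcd1*, the gene of PD-1, was at 503 and 495 CPM in CD8 T-like cells (log2 ratio -0.02, interval -0.13 to 0.09), and *Tigit* at 284 and 269 CPM (-0.08, interval -0.22 to 0.07). *Cd226*, the activating receptor of CD155, was at 111 and 65.2 CPM in CD8 T-like cells (-0.77, interval -1.04 to -0.51) and at 104 and 53.2 CPM in cycling T-like cells (-0.97, interval -1.28 to -0.67). In regulatory and gamma-delta T-like cells, its highest cluster, it was at 120 and 131 CPM (0.13, interval -0.50 to 0.77). *Ctla4* was lower in BUP in all 3 T-like clusters, at 643 and 385 CPM in regulatory and gamma-delta, 387 and 289 CPM in CD8 and 236 and 139 CPM in cycling T-like cells. These genes were picked after their values were seen, and no share over all genes was computed for the T-like clusters. Of the 11 receptor genes listed, 8 had enough UMIs in tumour-like cells, and *Pdcd1* (1.30 and 3.34 CPM) and *Cd28* (1.16 and 2.23 CPM) were higher and *Tigit* (19.1 and 9.03 CPM) lower by 1.5-fold (2 and 1 of 8, beside 2.72% and 5.29% of all genes). Most of the *Pdcd1* and *Cd28* UMIs in BUP were in the cycling cluster, which held 20 of 36 and 121 of 165 *Pdcd1* UMIs and 17 of 32 and 75 of 110 *Cd28* UMIs. That cluster is rich in high doublet scores, and in the *Ogn* and *Krt20* clusters the intervals of both genes held 0, with ratios of 1.62 and 0.31 for *Pdcd1* and of -0.62 and 0.92 for *Cd28*. The *Tigit* ratio of -1.08 was below that of every cluster, which was -0.83 in the *Krt20*, -0.69 in the cycling and 0.14 (2.47 and 2.71 CPM) in the *Ogn* cluster, the last being a larger share of tumour-like cells in BUP. T markers, 8 of 8 detected, were at 22.6 and 43.6 CPM in the same cells, and their part was not tested. In macrophage-like cells 8 were counted, *Tigit* (1.93 and 3.21 CPM) being higher and *Rgmb*, a PD-L2 binding protein, lower (19.3 and 11.8 CPM), 1 of 8 each, beside 3.29% and 5.74% of all genes. In dendritic-like cells 8 were counted, and *Pdcd1* (24.0 and 37.5 CPM), *Icos* (8.94 and 16.5 CPM) and *Tigit* (10.8 and 23.7 CPM) were higher (3 of 8, beside 2.36% of all genes), with T markers at 126 and 270 CPM in the same class. The *Tigit* ratio of 1.13 (0.40 to 1.90) turned to -0.26 (-1.96 to 1.40) after thinning. *Havcr2*, the gene of TIM-3, led the list in macrophage-like cells at 75.6 and 83.8 CPM, *Btla* in dendritic-like cells at 165 and 138 CPM and *Rgmb* in tumour-like cells at 74.3 and 76.8 CPM. No receptor had 50 UMIs in neutrophil-like cells.

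Of 15 other ligand genes listed, the galectins *Lgals1* and *Lgals3* were by far the most abundant. *Lgals1* was at 3963 and 4163 CPM in tumour-like cells and 2841 and 2972 CPM in macrophage-like cells, and *Lgals3* at 1463 and 1265 CPM and at 2945 and 3166 CPM. *Cd47*, the gene of the ligand that restrains phagocytosis through SIRP-alpha, was at 299 and 294 CPM in macrophage-like and 537 and 414 CPM in dendritic-like cells. None of the 7 counted in tumour-like cells passed 1.5-fold, beside 2.72% of all genes higher and 5.29% lower. Of 11 counted in macrophage-like cells, *Vsig4* (3.44 and 1.81 CPM) and *Nectin4* (8.89 and 5.62 CPM) were lower (2 of 11, beside 5.74%). In dendritic-like cells 9 were counted, and *Nectin1* (52.2 and 34.0 CPM), *Tnfrsf14* (18.4 and 6.71 CPM), the ligand of BTLA, and *Ceacam1* (26.4 and 16.5 CPM) were lower (3 of 9, beside 8.97% of all genes). *Lgals1* was lower in neutrophil-like cells, at 608 and 359 CPM, as 1 of 6 counted, beside 14.7% of all genes.

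The 17 genes listed as regulators of PD-L1, members of the interferon, JAK-STAT, NF-kappaB and hypoxia pathways and the PD-L1 stabilisers *Cmtm6* and *Cmtm4*, mostly differed by less than 1.5-fold. All 17 were counted in tumour-like cells and none passed, beside 2.72% of all genes higher and 5.29% lower. Among the most abundant there were *Stat3* at 93.7 and 108 CPM (log2 ratio 0.20) and *Irf1* at 92.3 and 110 CPM (0.25). Over the 17 genes in tumour-like cells the median log2 ratio was 0.10, with 12 above 0, against -0.04 over all genes counted. In macrophage-like cells *Hif1a* led at 259 and 310 CPM, and *Cmtm4* alone was lower (12.4 and 8.03 CPM) among 17, beside 5.74% of all genes. *Rela* alone was lower in dendritic-like cells (80.5 and 53.2 CPM) among 16, beside 8.97% of all genes. *Socs1*, an inhibitor of JAK signalling, alone was lower in neutrophil-like cells (127 and 80.2 CPM) among 16, beside 14.7% of all genes. *Irf1* was at 608 and 648 CPM there. A single regulator in a class is too few to read against these shares. Over the 42 cluster points the regulators nearest to *Cd274* were *Cmtm6* (Pearson r 0.92), *Irf1* (0.90) and *Irf9* (0.88), given as a description.

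The genes whose levels over the same 42 points were most like a member, among 11663 genes, were *Birc3* (r 0.96), *Gm36043* and *Slfn2* (both 0.94) for *Cd274*. For *Pdcd1lg2* they were *Nr4a3* (0.90), *Traf1* (0.89) and *Stat4* (0.88), and for *Cd80* *Mcemp1* (0.88), *Csf2rb* and *Nod2* (both 0.87). For *Cd86* they were *Irf5* (0.96), *Ctsh* and *Prkcd* (both 0.95), and for *Vsir* *Neurl3* (0.96), *Itgb2* and *Ptpn6* (both 0.95). *Lgals9* was nearest to *Cklf* (0.91), *Cap1* (0.90) and *Ube2a* (0.89). *Pvr* was nearest to *Daam1* and *Il6st* (both 0.88) and *Rab12* (0.87), *Nectin2* to *Sh3bp4*, *Cnn3* and *Ptov1* (each 0.86), and *Cd276* only loosely to *Cd109* (0.71), *Blvrb* (0.70) and *Itgb5* (0.69). Among the members themselves *Cd274* was nearest to *Cd86* (0.86) and *Vsir* (0.82). The points share libraries and depth, and the names depended on the choice of clusters.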

How the data were processed

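Single-cell RNA was measured in 1 UT and 1 BUP library (10x Genomics 5' v2). The deposited files hold UMI counts per gene and barcode, made by the authors with Cell Ranger 8.0.1 on GRCm39, with Seurat 5.0.1 also named in the submitters' processing notes. Cells with over 100 UMIs and under 20% mitochondrial UMIs were kept and clustered in Seurat 5.3.0 (R 4.3.3) with 2000 variable genes, 20 components and a resolution of 0.5, without integration. The members and the pathway lists were left out of the variable genes. Clusters with a *Ptprc* UMI in at least 30% of cells were taken as immune and clustered again. Doublets were scored with Scrublet (scanpy 1.11.5), which called 160 cells (1.15%), and none were removed. A cluster of mixed T and myeloid markers, one of mixed neutrophil and macrophage markers, a low-depth cluster and clusters led by *Ctsk* and *Cd209a* and by *Xkr4* and *Mir100hg* were left out of the 4 classes by choices made after the clusters were seen.

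Counts were summed per cluster and library, scaled to CPM, and given with exact Poisson intervals. Shares have exact Clopper-Pearson intervals and log2 ratios exact conditional intervals, all at 95% and for counting error only. With 1 library per group no test was made. Each cell was also thinned to 2000 UMIs, and cells below that were left out. The script was tested on simulated data. Computation used Python 3.11.15 with pandas 2.3.3, scipy 1.17.1, matplotlib 3.10.9 and numpy 2.4.6. Positions and starts are those of the GENCODE annotation of GRCm39.

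The named genes were all 9 members, the 3 genes most like each, and of the pathway lists the 3 highest in a class and those past 1.5-fold, and 1 gene that the rule names is not reported here. The members, lists and classes were chosen with earlier results of these data known. Of 18 regulators listed, 17 were found. Alternatives were other cell filters, resolutions, components, scalings, thresholds and class memberships, and 6 added after seeing the data.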

Additional observations from a re-analysis of the deposited data

Results flagged for a closer look

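A few members had ratios of opposite sign in different cells, with counting intervals on either side of 0. The differences were not tested, since each group was 1 library. *Cd80* had a log2 ratio (BUP over UT) of 0.62 in macrophage-like and -0.32 in tumour-like cells, a difference of 0.94. *Cd86* had 0.38 in macrophage-like and -0.22 in dendritic-like cells, a difference of 0.60. *Cd274* had 0.14 in *C1q* macrophage-like cells, against -0.27 in *Cxcl3* and *Thbs1* macrophage-like cells (a difference of 0.41) and -0.57 in cycling *C1q* macrophage-like cells (a difference of 0.71). *Cd274* also had 1.10 in plasmacytoid dendritic-like cells, on 39 and 54 UMIs, against -0.26 in cDC1-like cells (a difference of 1.36) and -0.43 in migratory dendritic-like cells (a difference of 1.53). *Lgals9* had 0.94 in migratory dendritic-like cells, on 17 and 33 UMIs, and -0.57 in cDC1-like cells, a difference of 1.51.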

How the results depend on the processing

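Of 36 pairs of a member and a class, 32 had at least 50 UMIs, and 18 of these kept their sign under every alternative run. *Cd80* in macrophage-like cells ranged from 0.41 to 0.71, positive throughout, but its count as higher was 0 in place of 1 at a resolution of 1.0, with 30 components, after thinning, with the cluster makeup held fixed and at 2-fold. The shares over all genes are given only for the main settings, so member counts under other settings cannot be read against them. At a fold of 5 to 4, 2 members were higher and 1 lower in macrophage-like cells, and 4 were lower in tumour-like cells. At that fold 1 was higher in dendritic-like cells and 1 was lower in neutrophil-like cells. At 2-fold 0 were lower in dendritic-like cells. Tumour-like cells without the highest doublet scores, whose *C1q* genes and *Ptprc* were lower in BUP as given above, had 2 lower members, *Cd86* and *Vsir*. *Pdcd1lg2*, the 1 lower before, had under 50 UMIs in them. There were 2, *Pdcd1lg2* and *Cd274*, without the cycling cluster (chosen after seeing the data), and 0 with at least 200 UMIs. Adding the neutrophil and macrophage mixed cluster gave 1 higher member in neutrophil-like cells. The macrophage median was -0.09 in place of 0.12 with the makeup held fixed. Of the 27 genes named as most like a member, 3 remained with clusters of at least 100 cells per library and 10 with Spearman correlation. The cluster with the highest level was the same for 6 of 9 members by mean log-normalised level. Except as the settings themselves show (other thresholds, fewer cells), the cause was not tested. No paired analysis was possible because each group was 1 library. Depth limits *Cd276* in all classes and *Pdcd1lg2* in tumour-like cells.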

Other observations

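*Cd274* in regulatory and gamma-delta T-like cells, outside the 4 classes, was at 332 CPM (276 to 396) in UT and 214 CPM (167 to 270) in BUP, and in the unnamed *Ctsk* and *Cd209a* cluster at 387 and 214 CPM. That cluster also had *Cd86* at 543 and 384 CPM and *Pdcd1lg2* at 98.9 and 44.1 CPM (-1.16, interval -1.81 to -0.55), which turned to 0.35 (-0.92 to 1.60) after thinning. The unnamed cluster of low depth (median 1232 UMIs) had *Cd86* at 786 and 749 CPM, the highest of any cluster, and *Cd274* at 642 and 842 CPM.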
